A study of Homo sapiens with 6 samples.

Results

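The 9 genes described here are the 4 protein kinases that phosphorylate the alpha subunit of translation initiation factor eIF2, the proteins that switch those kinases on or off, and the phosphatase subunits that remove the phosphate. They were taken by gene symbol, matched through Ensembl identifiers, and all 9 were present among the 63086 genes of the count table. Expression was measured by mRNA sequencing of HEK293T, a line of human embryonic kidney origin that carries the SV40 large T antigen. The 100Q group, 3 libraries, came from queuine-depleted cells that were then given queuine, and the 0Q group, 3 libraries, from depleted cells without it; both grew in medium with 10% dialyzed serum. One label gives the dose as 100 nM and the treatment protocol gives 1 µM for 24 hours, and which applies could not be settled. Queuine is a base that mammals take from diet and gut microbes and place in the anticodon of 4 tRNAs, where it becomes queuosine; these tRNAs read codons for tyrosine, histidine, aspartate and asparagine. The series' title links the modification to codon usage and proliferation.

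eIF2 carries the initiator tRNA to the ribosome. When its alpha subunit is phosphorylated it blocks its own exchange factor eIF2B, general initiation falls, and a few mRNAs with upstream reading frames, ATF4 among them, are translated better; this is the integrated stress response. Each kinase reads a different signal. EIF2AK1 (HRI) senses low heme and, through DELE1, mitochondrial stress. EIF2AK2 (PKR) senses double-stranded RNA and is itself induced by interferon. EIF2AK3 (PERK) senses unfolded proteins in the endoplasmic reticulum. EIF2AK4 (GCN2) senses uncharged tRNA and stalled ribosomes, which makes it the member closest to tRNA function. GCN1 holds GCN2 on the ribosome, and IMPACT competes for GCN1 and so restrains GCN2. PPP1R15A (GADD34), which is induced under stress, and PPP1R15B (CReP), which is constitutive, direct protein phosphatase 1 to eIF2.

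The promoters of 3 of these genes are shown because each holds a letter match to an element that was searched for. Each runs 5′ to 3′ on the gene's strand, from 250 bases before to 50 bases after the start of the RefSeq gene (GRCh38.p14), and capitals mark the matches. The EIF2AK2 promoter (chr2:37156931-37157230, minus strand) holds the interferon-stimulated response element core, GAAA and again GAAA with 2 bases between, from 6 bases before the start onward. The PPP1R15A promoter (chr19:48872171-48872470, plus strand) holds the cyclic AMP response element TGACGTCA, a palindrome read on both strands, which begins 58 bases before the start. The PPP1R15B promoter (chr1:204411768-204412067, minus strand) holds the element TGATGNAAN, bound by pairs of C/EBP and ATF factors, which begins 227 bases before the start.
EIF2AK2: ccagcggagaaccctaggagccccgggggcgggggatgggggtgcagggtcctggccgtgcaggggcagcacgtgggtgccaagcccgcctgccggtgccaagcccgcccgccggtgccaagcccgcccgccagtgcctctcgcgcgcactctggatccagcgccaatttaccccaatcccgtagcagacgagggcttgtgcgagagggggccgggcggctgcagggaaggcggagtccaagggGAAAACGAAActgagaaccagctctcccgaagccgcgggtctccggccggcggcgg
PPP1R15A: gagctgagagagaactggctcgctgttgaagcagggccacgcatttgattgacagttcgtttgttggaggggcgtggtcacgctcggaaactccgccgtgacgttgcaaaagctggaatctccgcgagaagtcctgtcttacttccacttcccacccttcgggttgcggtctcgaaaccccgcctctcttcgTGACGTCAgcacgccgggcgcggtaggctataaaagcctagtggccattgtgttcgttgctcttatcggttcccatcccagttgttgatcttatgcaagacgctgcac
PPP1R15B: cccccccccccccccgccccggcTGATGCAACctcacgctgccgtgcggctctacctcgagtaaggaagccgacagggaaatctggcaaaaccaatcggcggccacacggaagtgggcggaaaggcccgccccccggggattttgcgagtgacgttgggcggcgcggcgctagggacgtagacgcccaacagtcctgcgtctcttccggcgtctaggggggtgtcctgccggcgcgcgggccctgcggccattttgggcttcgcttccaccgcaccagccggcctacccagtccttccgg

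Both strands of 35116 promoters of this length were searched. The interferon element was found in 3.57% of them, the cyclic AMP element in 1.85% and the C/EBP-ATF element in 3.61%, and each was found in 1 of the 8 member promoters in the RefSeq table. The endoplasmic reticulum stress element, CCAAT and CCACG with 9 bases between (0.0769% of promoters), and the heat shock element, GAA, TTC and GAA with 2 bases between each (0.490%), were found in 0 of the 8. The motifs did not overlap one another in these 3 promoters. The table has no entry for EIF2AK1.

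The coding sequences of these genes differ widely in how much they call on queuosine tRNAs. Over the Ensembl canonical transcripts of GENCODE release 44, codons for these 4 amino acids made up a median of 13.6% of codons in 19072 coding genes with at least 100 codons. IMPACT had the highest share of the 9, with 57 of 320 codons (17.8%, the 92.9th percentile of coding genes). The 4 kinases lay above the median, with 16.0% in EIF2AK2 (79.1st percentile), 15.7% in EIF2AK4 (76.3rd) and 15.0% in EIF2AK3 (67.7th). EIF2AK1, with 14.1%, was close to the median (56.8th percentile). PPP1R15A had the lowest share, 63 of 674 codons (9.35%, the 9.14th percentile), followed by GCN1 (10.6%) and DELE1 (11.8%). PPP1R15B, at 13.9%, was also close to the median (53.5th percentile). Among these codons the share ending in C, against a median of 57.1% over coding genes, was 33.0% in EIF2AK2, 35.1% in IMPACT, 37.7% in EIF2AK3 and 38.1% in PPP1R15A. It was 63.1% in GCN1 and 62.3% in DELE1, with EIF2AK4, PPP1R15B and EIF2AK1 between at 49.8%, 50.5% and 53.9%. The 2 members with the highest C-ending share, GCN1 and DELE1, were among the 3 with the lowest share of these codons.

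**Figure D1:**
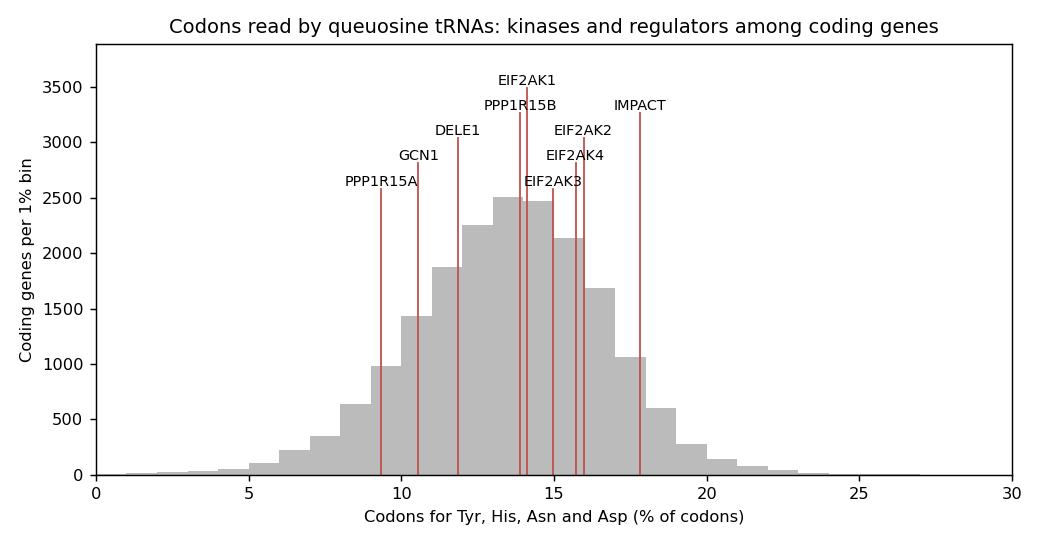
Share of codons for Tyr, His, Asn and Asp (x axis, % of codons) in 19072 human coding genes (grey bars, genes per 1% bin), with the 9 kinases and regulators as red lines whose heights only separate the names. PPP1R15A lies lowest at 9.35% and IMPACT highest at 17.8%, and the 4 kinases lie between 14.1% and 16.0%.

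For the 4 kinases and for the highest and lowest members in this measure, the stretch of 30 codons with the most such codons is shown, so that their spacing can be seen. Capitals mark codons for the 4 amino acids. Positions are counted in codons from the start codon: 432 to 461 in EIF2AK1, 316 to 345 in EIF2AK2, 456 to 485 in EIF2AK3, 752 to 781 in EIF2AK4, 206 to 235 in IMPACT and 445 to 474 in PPP1R15A. The stretches hold 9, 13, 13, 11, 9 and 10 such codons in that order. That of EIF2AK1 falls on the catalytic loop of the kinase, whereas those of EIF2AK2, EIF2AK4 and PPP1R15A are rich in GAT codons for aspartate.
EIF2AK1: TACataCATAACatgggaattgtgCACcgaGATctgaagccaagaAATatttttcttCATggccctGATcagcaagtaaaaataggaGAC
EIF2AK2: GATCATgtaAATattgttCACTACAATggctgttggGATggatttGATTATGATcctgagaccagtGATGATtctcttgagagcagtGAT
EIF2AK3: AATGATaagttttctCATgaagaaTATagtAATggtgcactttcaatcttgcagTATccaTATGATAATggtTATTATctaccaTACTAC
EIF2AK4: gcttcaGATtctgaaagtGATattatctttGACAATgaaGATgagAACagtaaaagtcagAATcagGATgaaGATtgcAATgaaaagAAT
IMPACT: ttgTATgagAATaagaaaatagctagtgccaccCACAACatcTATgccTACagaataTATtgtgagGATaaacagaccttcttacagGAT
PPP1R15A: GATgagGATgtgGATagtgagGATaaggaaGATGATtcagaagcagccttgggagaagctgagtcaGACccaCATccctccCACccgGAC

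Total estimated counts per library were 4023956 to 11398835 for 100Q and 7264638 to 8035251 for 0Q, and mitochondrial genes held 5.17% to 6.06% of them in 100Q libraries and 4.98% to 6.07% in 0Q libraries. Markers of the line were present: 8 of 9 HEK293 markers reached a mean of 1 CPM (a gene's counts over its library's TMM-scaled total), all but NEFH, with summed levels of 314 to 375 CPM in 100Q and 366 to 404 CPM in 0Q. Of 6 fibroblast markers 2 reached that level, COL1A1 and COL3A1 (sums of 32.7 to 37.8 CPM in 100Q and 29.8 to 33.7 CPM in 0Q), and PTPRC, CD3E, LYZ, TTR and SERPINA1 had no counts in any library. In bulk RNA, fewer expressing cells and less RNA per cell cannot be told apart, and neither kinase activity nor eIF2 phosphorylation was measured.

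None of the 9 genes was called different between 100Q and 0Q cells. All 9 passed the filter on low counts, 0 passed at a Benjamini-Hochberg adjusted p under 0.05 over all tested genes (edgeR quasi-likelihood test), and 0 had an unadjusted p under 0.05. The count was also 0 with DESeq2 and with limma-voom. Of the 14905 genes tested, 0.0134% were called and 4.72% had an unadjusted p under 0.05. The groups of libraries overlapped for every member. They did not overlap for 10.6% of tested genes, a share that 9 genes are too few to tell from none. Log2 fold changes (100Q minus 0Q) ran from -0.15 to 0.11, with 6 positive and 3 negative and a median of 0.038, against a median of -0.0027 and 49.4% positive over all tested genes. The 95% intervals of all 9 lay within a 1.5-fold change in either direction, as did those of 58.2% of tested genes. In simulated data of this depth and spread, 50% of genes changed 1.5-fold and 80% of those changed 2-fold were recovered. That simulation gave 177 calls, against 2 in the measured data, and the cutoff of the Benjamini-Hochberg adjustment is looser when more genes are called. These recoveries therefore do not give the chance of calling such a change in the 9 genes.

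**Figure D2:**
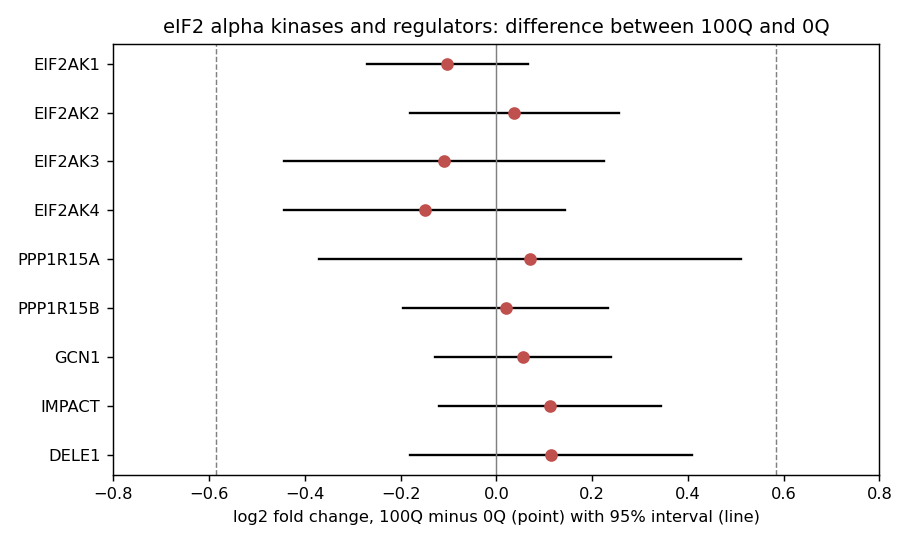
Log2 fold change of each kinase and regulator, 100Q minus 0Q (red point), with its 95% interval from edgeR (black line); dashed lines mark a 1.5-fold change in either direction. Every interval crosses 0 and stays inside the dashed lines, with point values from -0.15 for EIF2AK4 to 0.11 for DELE1.

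EIF2AK1 (ENSG00000086232, chr7:6022247-6059175, minus strand), the heme-regulated kinase, had 205, 184 and 188 CPM in 100Q replicates 1 to 3, against 197, 212 and 210 CPM in 0Q replicates 1 to 3. Replicates 2 and 3 of 100Q lay below all 0Q libraries and replicate 1 lay among them. It averaged 192 ± 10.97 CPM in 100Q cells against 207 ± 8.05 CPM in 0Q cells (SD, n = 3 each), a log2 fold change of -0.10 (95% interval -0.27 to 0.065; edgeR, unadjusted p = 0.212, adjusted p = 0.987). This was the smallest unadjusted p of the 9. The gene overlaps AIMP2 on the other strand by 532 exonic bases, and since the use of strand in counting is not given in the sources used here, reads there could belong to either gene.

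DELE1 (ENSG00000081791, chr5:141923855-141942047, plus strand), which carries the mitochondrial stress signal to that kinase, had 35.7, 40.0 and 47.4 CPM in 100Q and 41.9, 35.1 and 37.9 CPM in 0Q. Replicate 3 of 100Q, the deepest library, was the highest of the 6, and the other libraries of both groups were intermixed. The log2 fold change was 0.11 (-0.18 to 0.41; edgeR, adjusted p = 0.991), and without 100Q replicate 3 it was -0.018.

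EIF2AK2 (ENSG00000055332, chr2:37099210-37157522, minus strand), the double-stranded RNA sensor, had 65.2, 71.8 and 67.5 CPM in 100Q and 61.5, 67.7 and 69.8 CPM in 0Q. Values of both groups were interleaved. The log2 fold change was 0.038 (-0.18 to 0.26; edgeR, adjusted p = 0.995), and it was -0.015 without 0Q replicate 1. Its exons overlap those of GPATCH11 by 35 bases and the pseudogene ARL14EPP1 by 401 bases, both on the other strand.

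EIF2AK3 (ENSG00000172071, chr2:88556741-88691518, minus strand), the endoplasmic reticulum kinase, had 116, 103 and 253 counts in 100Q and 168, 186 and 212 counts in 0Q, or 22.2, 25.8 and 21.6 CPM in 100Q and 23.4, 23.3 and 27.9 CPM in 0Q. It is the kinase with the fewest counts. The log2 fold change was -0.11 (-0.44 to 0.23; edgeR, adjusted p = 0.991), and without 0Q replicate 3, the highest library, it was -0.018. An lncRNA on the other strand, ENSG00000225420, shares 781 exonic bases with it.

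EIF2AK4 (ENSG00000128829, chr15:39934115-40035591, plus strand), the sensor of uncharged tRNA, had 66.2, 44.02 and 63.2 CPM in 100Q and 60.2, 70.9 and 63.2 CPM in 0Q. Replicate 2 of 100Q, the library with the fewest counts, stood below the other 5, with 176 counts. The mean was 57.8 ± 12.01 CPM in 100Q cells against 64.8 ± 5.54 CPM in 0Q cells (SD, n = 3 each). The log2 fold change of -0.15 was the largest in size among the 9 (-0.44 to 0.14; edgeR, adjusted p = 0.991). Without 100Q replicate 2 it was -0.0071, so that the difference rested on that library.

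GCN1 (ENSG00000089154, chr12:120127202-120194715, minus strand), the ribosome-bound activator of that kinase, had 274, 236 and 239 CPM in 100Q and 261, 225 and 235 CPM in 0Q. In both groups replicate 1 was highest. The log2 fold change was 0.056 (-0.13 to 0.24; edgeR, adjusted p = 0.991), and -0.017 without 100Q replicate 1. The ratio of GCN1 to EIF2AK4, per length of exons, was 5.14, 6.65 and 4.69 in 100Q and 5.39, 3.93 and 4.61 in 0Q, with the highest value in the 100Q library that was low for EIF2AK4.

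IMPACT (ENSG00000154059, chr18:24426634-24453531, plus strand), the inhibitor that competes for GCN1, had 57.7, 53.5 and 57.0 CPM in 100Q and 49.8, 55.5 and 50.7 CPM in 0Q. Replicates 1 and 3 of 100Q lay above all 0Q libraries, and replicate 2 lay among them. The mean was 56.1 ± 2.25 CPM in 100Q cells against 52.0 ± 3.09 CPM in 0Q cells (SD, n = 3 each), a log2 fold change of 0.11 (-0.12 to 0.34; edgeR, adjusted p = 0.991). It stayed positive without each library in turn, from 0.081 to 0.16. The ratio of IMPACT to GCN1 per length of exons was 0.42, 0.45 and 0.47 in 100Q and 0.38, 0.49 and 0.43 in 0Q, which overlapped.

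PPP1R15A (ENSG00000087074, chr19:48872212-48876059, plus strand), the stress-induced phosphatase subunit, had 88, 71 and 191 counts in 100Q and 152, 110 and 103 counts in 0Q. On the CPM scale these were 16.9, 17.8 and 16.3 in 100Q and 21.1, 13.8 and 13.6 in 0Q. The 100Q libraries lay close together, between the highest and the other 0Q libraries. The log2 fold change was 0.070 (-0.37 to 0.51; edgeR, adjusted p = 0.995), the widest interval of the 9. It was 0.31 without 0Q replicate 1, and -0.034 and -0.042 without 0Q replicates 2 and 3.

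PPP1R15B (ENSG00000158615, chr1:204396492-204411887, minus strand), the constitutive subunit, had 164, 136 and 157 CPM in 100Q and 154, 132 and 166 CPM in 0Q. Its log2 fold change of 0.020 was the smallest in size (-0.19 to 0.23; edgeR, adjusted p = 0.995), and leaving out 0Q replicate 2 gave -0.071, leaving out 100Q replicate 1 gave -0.033, and leaving out 100Q replicate 3 gave -0.0053. The ratio of PPP1R15A to PPP1R15B per length of exons was 0.28, 0.36 and 0.28 in 100Q and 0.37, 0.28 and 0.22 in 0Q, so the constitutive subunit had the higher level in all 6 libraries. A lncRNA on the other strand, ENSG00000288934, shares 523 exonic bases with PPP1R15B.

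**Figure D3:**
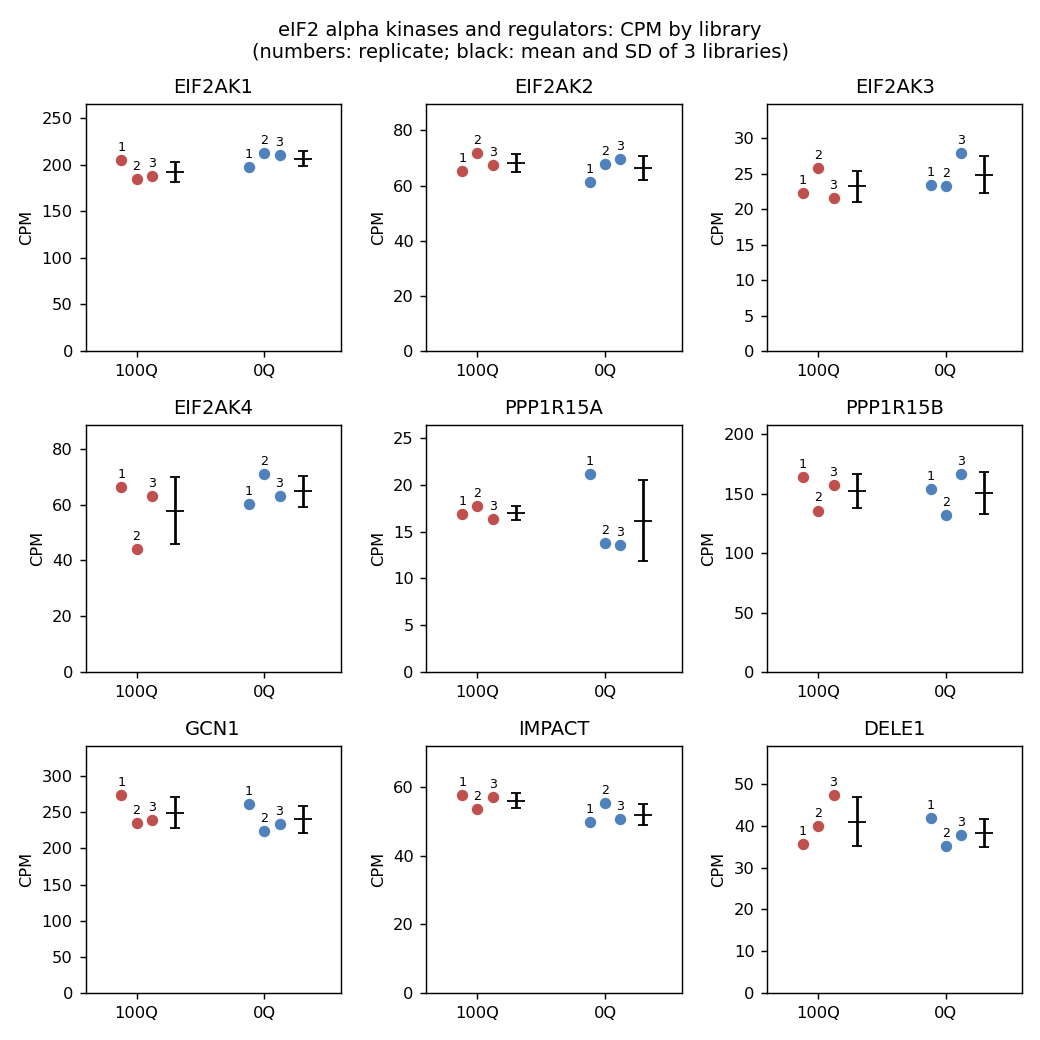
CPM of each kinase and regulator by library, 100Q (red) left of 0Q (blue), with numbers for replicates and black bars for the mean and SD of 3 libraries. The groups overlap in every panel, and the library farthest from its group is 100Q replicate 2 for EIF2AK4 (44.02 CPM) and 0Q replicate 1 for PPP1R15A (21.1 CPM).

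The members differed in how tightly replicates repeated. The SD within groups on the log2(CPM + 1) scale was 0.070 for EIF2AK1, 0.071 for IMPACT and 0.082 for EIF2AK2, at the 5.67th, 6.09th and 9.19th percentiles of tested genes. It was 0.25 for PPP1R15A and 0.24 for EIF2AK4, at the 63.2nd and 61.6th percentiles of tested genes. EIF2AK3, GCN1, PPP1R15B and DELE1 lay between, from 0.12 to 0.17. These percentiles are among tested genes of every level, not genes of like level. EIF2AK1 had 737 to 2197 counts per library and PPP1R15A 71 to 191, so spread was not separated from level.

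Levels can be set side by side between genes only per length. As counts per length of all annotated exons, scaled to the same total in every library as TPM values are, EIF2AK1 led with 108 ± 7.14 in 100Q and 113 ± 5.63 in 0Q (SD, n = 3 each), above 93.6% of tested genes over the 6 libraries. It was followed by GCN1 (79.9 ± 6.99 in 100Q and 74.9 ± 5.21 in 0Q), PPP1R15B (50.5 ± 6.05 and 48.7 ± 5.87, in the same order) and IMPACT (35.4 ± 2.45 and 32.0 ± 2.04). Each of these 4 stood clear of the next gene in the order in all libraries. DELE1, EIF2AK2, EIF2AK4 and PPP1R15A, with averages over all libraries of 20.2, 18.6, 15.6 and 14.7, overlapped their neighbours. EIF2AK3 was lowest, clear of the others, at 3.46 ± 0.23 in 100Q and 3.63 ± 0.42 in 0Q.

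The length chosen mattered for part of this order. With the longest coding transcript of each gene, EIF2AK3 averaged 10.96 in place of 3.54, since its annotated exons add up to 20691 bases and that transcript has 4724. EIF2AK4 averaged 23.9 in place of 15.6. PPP1R15B (62.2) and GCN1 (60.8) then overlapped, as did PPP1R15A and EIF2AK3. EIF2AK1 was highest with either length.

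Among the 4 kinases, EIF2AK1 took 74.3% ± 0.83 of the summed per-length level in 100Q and 74.9% ± 0.44 in 0Q (SD, n = 3 each). EIF2AK2 took 13.1% ± 1.297 in 100Q and 11.96% ± 0.35 in 0Q, EIF2AK4 took 10.2% ± 1.75 in 100Q and 10.8% ± 0.59 in 0Q, and EIF2AK3 took 2.39% ± 0.33 in 100Q and 2.39% ± 0.23 in 0Q. With the longest coding transcript the share of EIF2AK1 was 66.4% ± 0.98 in 100Q and 66.6% ± 0.48 in 0Q, and EIF2AK4 came second, with 15.8% ± 2.64 in 100Q and 16.6% ± 0.92 in 0Q. The heme-regulated kinase had a higher per-length level than the other 3 together, by either length, in all 6 libraries.

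**Figure D4:**
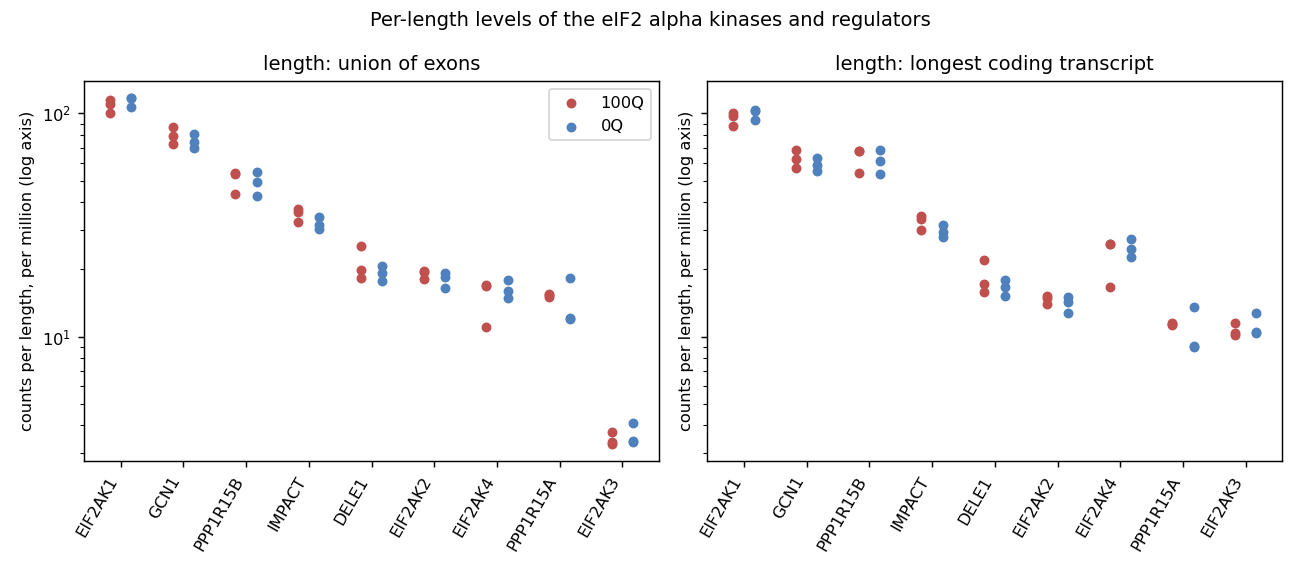
Level of each kinase and regulator per length, scaled to the same total in every library as TPM values are (log axis), for 100Q (red) left of 0Q (blue), 3 libraries each, with length taken as the union of exons (left) or the longest coding transcript (right). EIF2AK1 is highest in both panels, and EIF2AK3 moves most between them, averaging 3.54 on the left and 10.96 on the right.

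The genes most like each kinase across the 6 libraries were sought among 10576 others with a mean of at least 10 CPM, by the root mean square difference of their log2(CPM + 1) deviations from their own mean. They were DDX18 and LINC00963 for EIF2AK1 (differences of 0.021 and 0.022), EXOSC2 and NORAD for EIF2AK2 (0.010 and 0.022), BTF3L4 and DUSP22 for EIF2AK3 (both 0.024) and RUNDC3B and CMC2 for EIF2AK4 (both 0.044). The kinases' own root mean square deviations were 0.077, 0.070, 0.12 and 0.21 in that order. All these values share the same 6 libraries and their depths.

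The substrate and the partners of the kinases were examined next, in lists of other pathway genes. eIF2 and eIF2B subunits and their assembly factors had 0 of 12 genes called in either direction, with a median log2 fold change of -0.014 against -0.0027 over all tested genes. The sign of that median turned without 0Q replicate 3 (0.0087), with library size only (0.0061) and with the correction for GC content and length (0.0029). EIF2S1, the phosphorylated subunit, averaged 79.4 ± 3.31 CPM in 100Q cells against 85.8 ± 6.03 CPM in 0Q cells (SD, n = 3 each; log2 fold change -0.11, 95% interval -0.32 to 0.094). EIF2B1, a regulatory subunit of the exchange factor and the lowest p of that list, had 59.6, 50.03 and 57.6 CPM in 100Q and 63.1, 65.7 and 65.8 CPM in 0Q, which did not overlap (edgeR, unadjusted p = 0.0671, adjusted p = 0.987). The groups also did not overlap for 10.6% of all tested genes.

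Of 12 activators and ligands of the kinases outside the 9 genes, 0 were called, with a median of -0.057. OMA1, the protease that cleaves DELE1, averaged 19.2 ± 3.72 CPM in 100Q cells against 16.7 ± 4.77 CPM in 0Q cells (SD, n = 3 each), a log2 fold change of 0.19 with a 95% interval of -0.28 to 0.66. Among the 3 libraries of 100Q, leaving out replicate 2 gave 0.072 and leaving out replicate 1 gave 0.32; among those of 0Q, leaving out replicate 1 gave 0.028 and leaving out replicate 3 gave 0.44. ABCF3, a relative of the yeast GCN2 activator Gcn20, had 0.30 (-0.051 to 0.66). Of 10 inhibitors and chaperones, 0 were called, with a median of -0.054. At an unadjusted p under 0.05 there was 1 gene, against 4.72% of all tested genes. That gene was HSPA8, an abundant heat shock chaperone, with 1109, 958 and 938 CPM in 100Q and 1148, 1225 and 1148 CPM in 0Q, which did not overlap (log2 fold change -0.23, edgeR, unadjusted p = 0.0106, adjusted p = 0.987). The groups also did not overlap for 10.6% of all tested genes. Of 14 alternative fits of HSPA8, 13 kept an unadjusted p under 0.05, with a lowest adjusted p of 0.478 (edgeR, no filter on low counts). The exception was the fit without 0Q replicate 2 (-0.20, edgeR, unadjusted p = 0.0558). Since HSPA8 was named for its p and these fits share libraries, the tally is not separate support. HSPA5, the chaperone that holds PERK inactive, had -0.032 (-0.20 to 0.14).

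The catalytic subunits of protein phosphatase 1, with which both PPP1R15 proteins work, had log2 fold changes of -0.040 (PPP1CA), -0.17 (PPP1CB) and -0.0095 (PPP1CC), the last of which was 0.0089 with library size only and 0.037 with the correction for GC content and length. PPP1CB had -0.047 when replicate 2 of 100Q was left out, -0.30 when replicate 3 of 100Q was, and -0.11 with the correction for GC content and length. Of 7 genes in this list with actin and other partners, 0 were called, with a median of -0.040.

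Downstream, ATF4 mRNA averaged 610 ± 48.9 CPM in 100Q cells against 606 ± 29.5 CPM in 0Q cells (SD, n = 3 each; log2 fold change 0.0077, 95% interval -0.16 to 0.17), and its sign turned without 0Q replicate 3 (-0.025) or 100Q replicate 2 (-0.059). Of 28 tested genes among ATF4 and its targets 0 were called, 19 were positive, and the median was 0.064. At an unadjusted p under 0.05 there were 2, both higher, against 2.49% of tested genes. TRIB3, a pseudokinase that feeds back on ATF4, had 43.3, 49.5 and 41.3 CPM in 100Q and 28.9, 37.0 and 34.7 CPM in 0Q, which did not overlap (log2 fold change 0.40 ± 0.14, SE; edgeR, unadjusted p = 0.00971, adjusted p = 0.987). The groups also did not overlap for 10.6% of all tested genes. Of 14 alternative fits of TRIB3, 13 kept an unadjusted p under 0.05, with a lowest adjusted p of 0.602 (edgeR, no filter on low counts). The exception was the fit without 0Q replicate 1 (0.31, edgeR, unadjusted p = 0.0505). CHAC1, which degrades glutathione, had 17.5, 31.0 and 25.2 CPM in 100Q and 17.9, 15.0 and 16.98 CPM in 0Q (0.55 ± 0.20, SE; edgeR, unadjusted p = 0.0144, adjusted p = 0.987). Of 14 alternative fits of CHAC1, 12 kept an unadjusted p under 0.05, with a lowest adjusted p of 0.581 (edgeR, no filter on low counts). The others were without 100Q replicate 2 (0.38, edgeR, unadjusted p = 0.0774) and without 0Q replicate 2 (0.48, edgeR, unadjusted p = 0.0551). Since TRIB3 and CHAC1 were named for their p and these fits share libraries, the tallies are not separate support. DDIT3 (CHOP), an activator of PPP1R15A, pointed the other way, with 39, 32 and 74 counts in 100Q and 91, 81 and 64 counts in 0Q, or 7.48, 8.004 and 6.33 CPM in 100Q and 12.7, 10.2 and 8.42 CPM in 0Q (log2 fold change -0.53, 95% interval -1.13 to 0.067; edgeR, unadjusted p = 0.078, adjusted p = 0.987). On the CPM scale the groups did not overlap for DDIT3 either.

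Interferon-stimulated genes, to which EIF2AK2 belongs, had 0 of 13 tested genes called and 9 negative, with a median of -0.13 that ran from -0.28 to -0.014 without each library in turn. Of 24 listed genes 11 had too few counts to test. Unfolded protein response genes outside PERK had 0 of 15 called and a median of 0.043, which was 0.0036 when replicate 3 of 100Q was left out and -0.0025 when replicate 2 of 0Q was. SDF2L1, an endoplasmic reticulum chaperone partner, had the smallest p (log2 fold change 0.33, 95% interval -0.043 to 0.70).

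**Figure D5:**
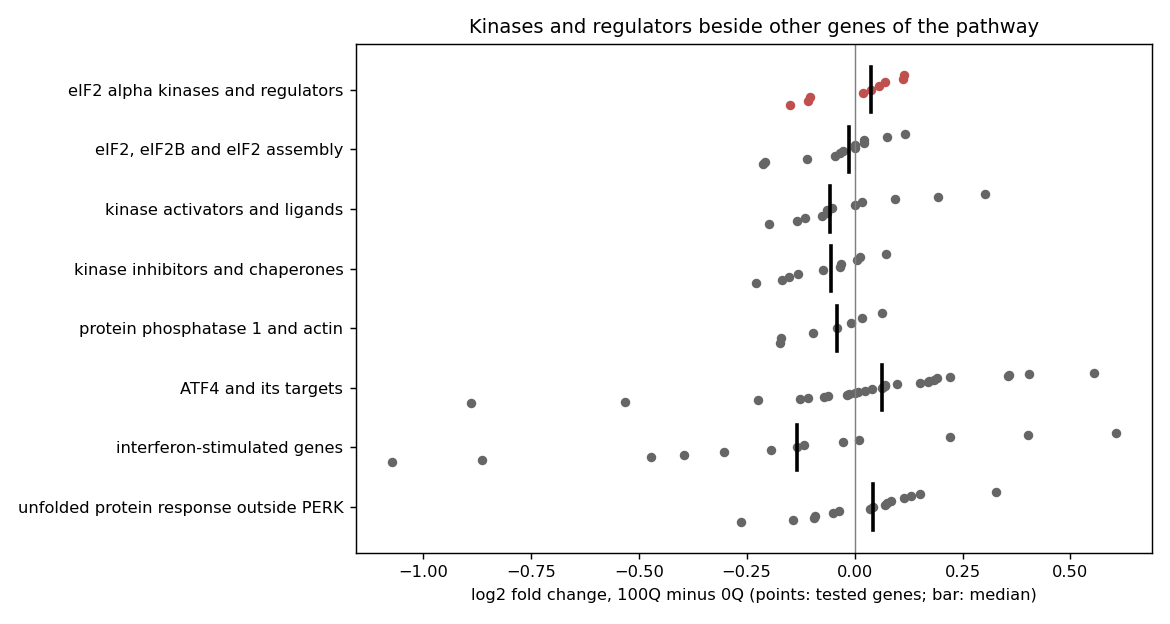
Log2 fold change, 100Q minus 0Q, of the tested genes (points) in each list of pathway genes, with the median as a black bar and the 9 kinases and regulators in red at the top. The kinases and regulators run from -0.15 to 0.11, and ATF4 targets and interferon-stimulated genes, some of them with few counts, spread more widely around medians of 0.064 and -0.13.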

How the data were processed

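Messenger RNA of HEK293T cells was profiled in 6 libraries, 3 of 100Q and 3 of 0Q; groups and replicate numbers came from the sample titles. The authors deposited estimated counts per Ensembl gene, not normalized; FastQC, STAR and RSEM were used, per the submitters' processing notes, and the series design gives hg38. The sources used here do not give versions, gene annotation, strand setting or molecular identifiers. The labels mention triplicates without calling them separate cultures; p-values reflect only the variation among these libraries, which may be technical.

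Of 63086 identifiers, 62541 matched GENCODE release 44 without their version number; the other 545 held 0.129% of counts. Estimated counts were rounded and tested with edgeR 4.0.16 (R 4.3.3; TMM, default filter at a minimum count of 10, quasi-likelihood test, Benjamini-Hochberg adjustment over all genes, threshold 0.05). Alternatives used DESeq2 1.42.0, limma 3.58.1 (voom), other normalizations, filters, a replicate block, a correction for GC content and length, and each library left out. In simulated data of 14905 genes with 200 changed, 15 of 177 calls were wrong. No 2 replicates agreed within sampling noise (chi-square over its degrees of freedom 5.36 to 14.2). Promoter sequences are RefSeq's, and coding sequences GENCODE's.

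The 9 genes and the lists were chosen with earlier results of these data known. Genes named were all 9, list genes with an unadjusted p under 0.05 or else the smallest p, ATF4, DDIT3, EIF2S1, HSPA5, OMA1 and 3 phosphatase subunits, and the 2 genes most like each kinase. A list gene that the rule names is not reported here.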

Additional observations from a re-analysis of the deposited data

How the results depend on the processing

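The count of members called was 0 under every alternative run. The count over all genes, 2 with the main settings, was 71 with no filter on low counts, 11 with DESeq2, 4 with the correction for GC content and length, 1 with the stricter filter (a mean count of at least 50), 1 with limma-voom, and 0 to 6 without each library in turn; the cause was not tested. With the replicate block it was 3, and 0 members were called. Whether same-numbered libraries of the groups were handled together is not given in the labels. Their deviations correlated at -0.021, 0.0046 and 0.21 for replicates 1 to 3. The value for replicate 3 was the highest of any pair, but not every library correlated best with its own number. With 3 libraries per group these values cannot settle the question.

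Of 126 values of the 9 genes under alternatives, 118 kept their direction and 8 reversed, all 8 without 1 library. Without each library in turn, log2 fold changes ran from -0.015 to 0.075 for EIF2AK2, -0.042 to 0.31 for PPP1R15A, -0.071 to 0.097 for PPP1R15B, -0.017 to 0.12 for GCN1 and -0.018 to 0.21 for DELE1. Of 210 values of the other genes that the naming rule picks 12 reversed. Without each library they ran from -0.059 to 0.056 for ATF4, -0.085 to 0.029 for HSPA5, -0.11 to 0.035 for PPP1CA, -0.30 to -0.047 for PPP1CB, 0.028 to 0.44 for OMA1 and -0.031 to 0.024 for PPP1CC. ATF4 also had -0.0019 with no filter on low counts and -0.0026 with limma-voom, and PPP1CC had 0.0089 with library size only and 0.037 with the correction for GC content and length. None of these genes was called under any alternative run. Of 98 medians of the 7 lists, 14 moved by more than the spread between libraries; without each library in turn they ran from -0.073 to -0.010 for kinase activators and ligands, -0.089 to -0.021 for inhibitors and chaperones, -0.078 to -0.018 for protein phosphatase 1 and actin and 0.030 to 0.094 for ATF4 and its targets. Of 18 levels per length under 2 other lengths, 15 moved by more than that spread; the canonical transcript was chosen as a length after the data were seen. EIF2AK3 and PPP1R15A had 253 counts or fewer in every library.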
